A study of Mus musculus with 14 samples.

Results

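Tal1, Lyl1, Lmo2 and Ldb1 encode components of one DNA-bound complex of blood progenitors, and the chromatin around these 4 of 21887 protein-coding genes was read in bone marrow progenitors with and without the histone demethylase UTX. The members were chosen by gene name, with earlier results of these data known. Every enriched stretch (island) of a library that met the annotated gene span plus 100 kb on either side was taken. Each island is given with its reads per 1000000 reads in islands of its library (RPM). KO libraries came from lineage-depleted (Lin-) bone marrow progenitors of C57BL/6 mice labelled UTX KO (Utx-/-), and WT libraries from the same fraction of C57BL/6 mice labelled UTX WT (Utx +/+). Both groups share the strain and the depletion of mature cells with a commercial kit. The age and sex of the mice and the means of deletion are not given in the sources used here, nor is whether replicates 1 and 2 came from separate animals, so p-values measure the spread between libraries, which may be technical. Acetylation (H3K27ac) and trimethylation (H3K27me3) of histone H3 at lysine 27 were each measured in 2 KO and 2 WT libraries, and UTX in 2 WT libraries. The background came from 1 IgG library of WT cells, which the labels tie to a BCOR precipitation. 3 of the 14 samples (2 inputs and a second IgG) were not analysed here.

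TAL1 and LYL1 are related basic helix-loop-helix factors that pair with E proteins and bind the E-box. LMO2 is a LIM-only bridge without DNA binding of its own, and LDB1 dimerises and so joins bound sites over a distance. With GATA factors they regulate stem cell and erythroid genes, and Tal1, Lyl1 and Lmo2 are known as oncogenes of T cell leukaemia. H3K27ac marks active promoters and enhancers, H3K27me3 marks genes held silent by Polycomb, and UTX (gene Kdm6a) removes methyl groups from H3K27 and sits at enhancers.

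The islands lay in mm10 (GRCm38). Tal1 spans 115056426 to 115071755 of chromosome 4, Lyl1 84701423 to 84704716 of chromosome 8, Lmo2 103957903 to 103981878 of chromosome 2 and Ldb1 46031525 to 46048145 of chromosome 19. Positions below are in kb from the 5' end of the span, negative upstream, except at Lmo2, where they count from the lower-coordinate end. 3 of the 4 members (Tal1, Lyl1 and Ldb1) matched the RefSeq promoter sequences of GRCm38.p6. The bases directly before the Tal1 and Lyl1 spans are shown because UTX islands of both libraries and H3K27ac islands of all 4 libraries lay over them, with no IgG island. Tal1 is chr4:115056176-115056425 (plus strand) and Lyl1 is chr8:84701207-84701422 (plus strand). Capitals mark motif matches.
Tal1: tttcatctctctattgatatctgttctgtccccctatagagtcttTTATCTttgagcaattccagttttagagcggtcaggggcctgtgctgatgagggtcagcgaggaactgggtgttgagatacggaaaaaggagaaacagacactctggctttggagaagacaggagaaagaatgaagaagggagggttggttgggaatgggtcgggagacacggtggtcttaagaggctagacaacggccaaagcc
Lyl1: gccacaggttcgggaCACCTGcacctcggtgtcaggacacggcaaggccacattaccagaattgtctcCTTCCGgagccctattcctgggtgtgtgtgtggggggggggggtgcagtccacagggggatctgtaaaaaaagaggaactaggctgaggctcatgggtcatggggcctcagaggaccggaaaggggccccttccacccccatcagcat

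GATA words (AGATAA or AGATAG or TGATAA or TGATAG), the E-box CANNTG and ETS words (CGGAAG or AGGAAG) were searched on both strands of the 250 bases before a RefSeq start, and no word of one motif contains a word of another. The Tal1 sequence held 1 GATA word, TTATCT, at positions -205 to -200 from the start, and no E-box or ETS word. The Lyl1 sequence held 1 E-box, CACCTG, and 1 ETS word, CTTCCG, and no GATA word. Of 32851 mouse promoters of this length, 26.5% held a GATA word, 66.2% an E-box and 39.2% an ETS word. The 3 RefSeq starts of Ldb1 lie inside its span. All 3 of those promoters met H3K27ac islands in the 4 libraries, and the 250 bases before the most upstream start held none of the 3 motifs.

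H3K27ac libraries held 14763744 and 11121847 reads in islands in KO, against 9330823 and 15256696 in WT. H3K27me3 libraries held 2347442 and 2507004 in KO, against 2743508 and 2455803 in WT. UTX islands held 816567 reads in replicate 1 and 1834418 in replicate 2, and IgG islands 154029. Kdm6a, the gene removed, held H3K27ac islands in every library (181 and 185 RPM in KO, 197 and 102 RPM in WT), and since island lists cannot show a deleted exon they gave no check on the genotype labels. Markers of blood progenitors met H3K27ac islands in all 4 libraries (6 of 6 genes), and those of tissues outside blood in none (0 of 4 genes). The 6 progenitor markers summed to 1764 and 1509 RPM in KO, against 1255 and 1387 RPM in WT. By the test given below, Ptprc and Spi1 were higher in KO, Kit and Cd34 lower, and Runx1 and Myb were not called. Summed H3K27ac at the ends of 7 B cell markers was 490 and 700 RPM in KO, against 182 and 161 RPM in WT, and at the ends of 7 erythroid markers 103 and 136 RPM in KO, against 464 and 567 RPM in WT. The B cell marker Pax5 met an island in both KO libraries and neither WT library. The sum over 5 megakaryocyte markers was 330 and 317 RPM in KO, against 543 and 578 RPM in WT. It was 138 and 91.4 RPM in KO, against 72.8 and 57.2 RPM in WT, over 5 T cell markers. Over 6 granulocyte and monocyte markers the sum was 911 and 791 RPM in KO, against 582 and 664 RPM in WT. Of the 5 of these that were tested, Cebpe alone was higher and 4 were not called. Over 4 mast cell and basophil markers the sum was 140 and 104 RPM in KO, against 137 and 138 RPM in WT. Endothelial cells also use Tal1 and Lmo2, and of 6 endothelial and stromal markers only Kdr met an island (4.81 and 6.11 RPM in KO, 10.2 and 8.85 RPM in WT), and Cdh5, Tek, Tie1, Col1a1 and Lepr had none in any of the 4 libraries.

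H3K27ac was lower in KO progenitors over much of the 4 windows. Islands of the 4 libraries joined into 30 regions, of which the 20 with an island in every library were tested. 10 of the 20 (50.0%) were lower in KO and 1 (5.0%) was higher, by edgeR's quasi-likelihood test with Benjamini-Hochberg adjustment over all regions. Of all 18820 regions tested genome-wide, 14.0% were lower and 12.0% higher. The median log2 fold change of KO over WT was -0.40 in the windows, against -0.0002 over all regions tested, and 17 of 20 were negative. Fold changes use edgeR's TMM scaling and are not ratios of the printed RPM. They can be negative where RPM is higher in KO, as at Cmpk1 below. Scaled by total island reads instead, 9 of the 20 regions were lower and 2 higher, with a median of -0.28. By RPM and in either direction, KO and WT libraries did not overlap in 16 of the 20 regions (80%), against 65.9% of all regions tested. Both KO libraries lay above both WT libraries in some of the 16, among them those at Hps6, Armh3, Cmpk1 and the far end of Stil. The called regions were 2 at Tal1, 3 at Lyl1, 3 at Lmo2 and 3 at Ldb1, where 1 of them was the higher one. In bulk libraries, fewer cells carrying the mark and less of the mark per cell cannot be told apart, and the part that these differences in marker sums had in the values was not tested. Tested per covered length of island in place of total reads, 4 of the 20 regions were lower and 0 higher, against 1.38% and 0.42% of all regions. Those 4 were the regions at Tal1, Pdzk1ip1, Lmo2 and Ldb1 described next.

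**Figure D1:**
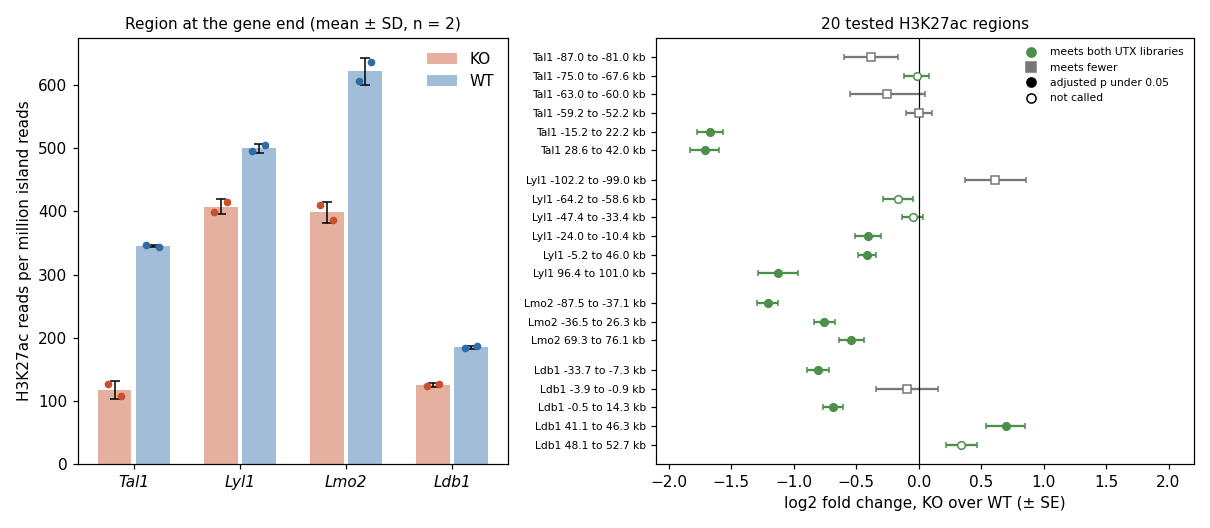
Left, H3K27ac at the region over each gene's end in KO (red) and WT (blue) progenitors, in RPM; bars are means, error bars SD and points the 2 libraries of each group. Right, log2 fold change of KO over WT with its SE for the 20 tested regions, by distance from the gene; filled symbols passed an adjusted p of 0.05 and circles met islands of both UTX libraries. The KO libraries lie below the WT libraries at all 4 genes, by the widest ratio at Tal1. The Lyl1 region reaches into Nfix, and over Lyl1 itself WT replicate 1 is not above KO, while WT replicate 2 has 1 undivided island.

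Tal1, the factor that names the complex, showed the steepest fall among the 4 gene ends. Its region ran from -15.2 to +22.2 kb and took in the whole gene and the end of Stil, a centriole gene next to it. It held 127 and 107 RPM in the KO libraries, against 347 and 344 RPM in the WT libraries. The WT libraries lay close together and each was far above both KO libraries (117 ± 13.8 in KO and 345 ± 1.62 in WT, mean ± SD, n = 2 each). KO over WT came to -1.67 on the log2 scale (SE 0.103, edgeR adjusted p = 0.00025), and 1.5% of 11722 gene ends had a lower one. Among those gene ends 16.9% were lower and 10.8% higher in KO. Islands covered 23.0 and 16.8 kb of the region in KO, against 24.2 and 35.8 kb in WT. Per kb of island the region held 5.52 and 6.39 RPM in KO, against 14.3 and 9.62 RPM in WT, so the groups did not overlap on that scale either (log2 fold change -1.11, edgeR adjusted p = 0.0173).

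Within the Tal1 region the fall was uneven where the region could be divided. WT replicate 2 had 1 island over the whole stretch and cannot place the fall, and without that library the region split into 2. The part from -9.6 to +13 kb held 109 and 91.2 RPM in KO, against 327 RPM in WT replicate 1 (log2 fold change -1.77, edgeR adjusted p = 0.0097). The part from +15.0 to +22.2 kb, at and past the 3' end, held 17.9 and 16.2 RPM in KO, against 19.8 RPM in WT (log2 fold change -0.28, edgeR adjusted p = 0.47). With a single WT library, that sample was taken to vary like the KO pair. In that fit 9 of 24 regions of the 4 windows were lower and 0 higher, against 7.38% and 6.99% of all regions.

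Beyond Tal1, the interval around Pdzk1ip1, a small membrane protein gene in a stretch known to hold an erythroid enhancer of Tal1, fell as steeply. This region, from +28.6 to +42.0 kb, held 31.1 and 28.4 RPM in KO, against 89.8 and 90.8 RPM in WT. Both WT libraries were well above both KO libraries (log2 fold change -1.71, SE 0.115, edgeR adjusted p = 0.00032). Within it, WT replicate 1 had separate islands at +28.6 to +35.8 kb (37.3 RPM) and +36.8 to +42.0 kb (52.5 RPM). The matching islands of KO replicate 2, at +31.6 to +36.4 kb (13.4 RPM) and +37.4 to +41.0 kb (15.0 RPM), were both shorter and lower. A small island at +46.0 to +48.2 kb was present in both WT libraries (5.68 and 7.14 RPM) and in neither KO library.

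On the other side of Tal1 the values did not separate this way. The region over the near end of Cmpk1, a nucleotide kinase gene, at -75.0 to -67.6 kb, held 71.7 and 78.3 RPM in KO, against 69.7 and 70.2 RPM in WT (log2 fold change -0.02, edgeR adjusted p = 0.926). The region over the far end of Stil, at -59.2 to -52.2 kb, held 59.7 and 64.8 RPM in KO, against 59.4 and 55.7 RPM in WT (edgeR adjusted p = 0.997). Both were among the 4 regions of the Tal1 window that did not pass the test. Summed over the window, H3K27ac was 322 and 303 RPM in KO, against 607 and 613 RPM in WT (log2 fold change -0.98, edgeR adjusted p = 0.002 over the windows of 17346 genes, of which 20.1% were lower and 17.2% higher). Islands covered 54.8 and 43.4 kb of the window in KO, against 58.6 and 76.8 kb in WT, and per covered length the difference no longer passed (log2 fold change -0.52, edgeR adjusted p = 0.111).

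**Figure D2:**
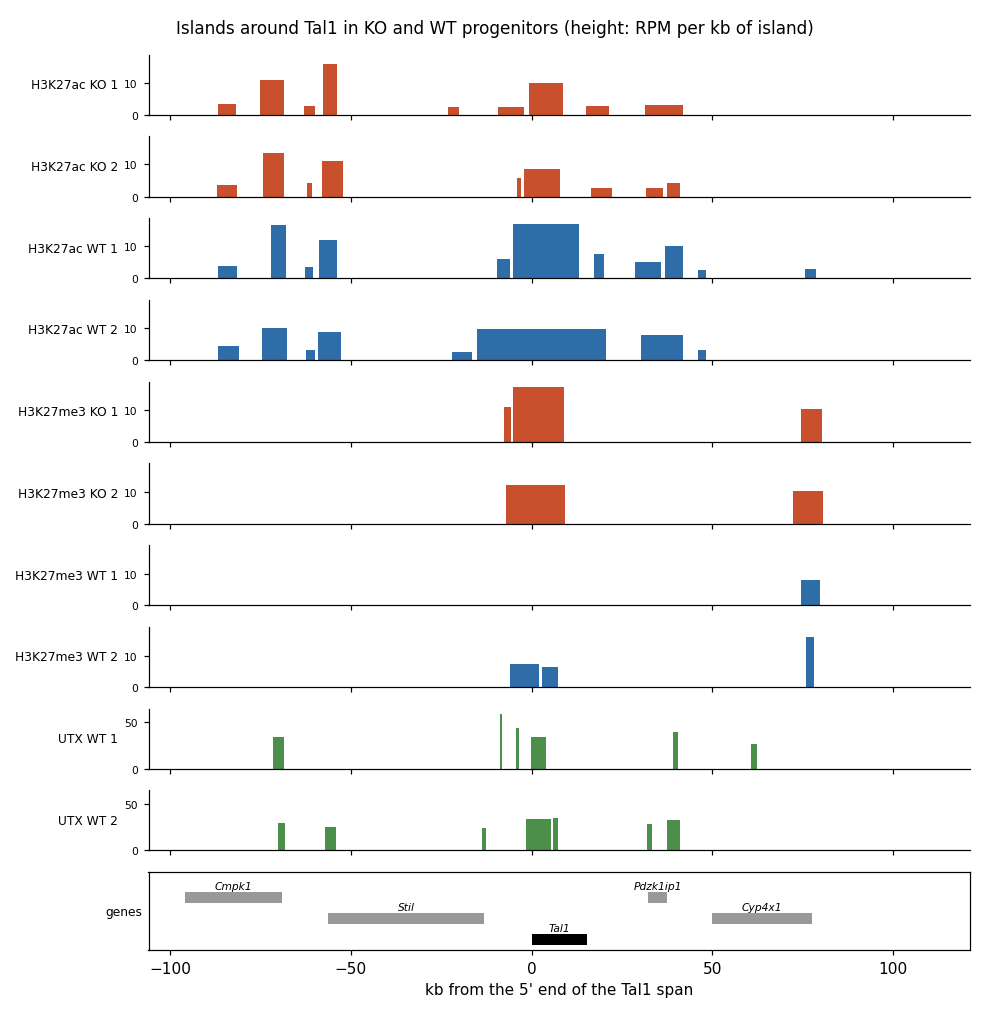
Islands from 100 kb before to 100 kb after Tal1, 1 row per library, KO rows (red) above WT rows (blue) for each histone mark and UTX in WT (green) below; the x axis is distance in kb from the 5' end of the span, each bar spans 1 island and its height is RPM per kb of island, on a scale set for each assay. The H3K27ac bar over Tal1 is tallest in WT replicate 1 (17.0 RPM per kb), with KO (9.72 and 8.55) near the long bar of WT replicate 2 (9.62), and the bars at about +40 kb are lower in KO, while H3K27me3 bars over Tal1 are taller in both KO libraries than in WT replicate 2 and missing in WT replicate 1.

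The Tal1 body also carried H3K27me3, and more of it in the KO libraries. The H3K27me3 region from -7.6 to +9.2 kb held 264 and 197 RPM in KO (619 and 493 reads), against no island in WT replicate 1 and 88.4 RPM (217 reads) in WT replicate 2. Both KO libraries were over 2 times the higher WT library, as were 2.42% of all 27722 H3K27me3 regions, a criterion chosen after these values were seen. The region was outside the main test, which needs an island in every library. Counting the missing island as 0 gave a log2 fold change of 2.26 (SE 1.85, edgeR adjusted p = 0.983). Without WT replicate 1 it was 1.27 (SE 0.254, unadjusted p = 8.42e-05, edgeR adjusted p = 0.107). The difference therefore did not pass the threshold in either test. H3K27ac islands of all 4 libraries and UTX islands of both UTX libraries overlapped this stretch.

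UTX lay at the Tal1 start and at the Pdzk1ip1 side in WT cells. Replicate 1 had an island from -0.2 to +4.0 kb (143 RPM) and replicate 2 from -1.4 to +5.4 kb (227 RPM), the strongest of each library in this window. Farther on, islands stood at +39.0 to +40.4 kb in replicate 1 (55.1 RPM) and +37.4 to +41.2 kb in replicate 2 (125 RPM). Replicate 1 had 6 UTX islands in the window and replicate 2 had 7, of which 3 in each met an island of the other.

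Lyl1, the paralogue of Tal1, had the smallest H3K27ac difference of the 4 members. WT replicate 1, the WT library that divided the stretch, was not above KO over the gene itself. The region at its end ran from -5.2 to +46.0 kb and was shared with Trmt1, a tRNA methyltransferase gene, and with Nfix, a nuclear factor I gene whose span begins at the 3' end of Lyl1 and runs to about +100 kb. It held 399 and 416 RPM in KO, against 495 and 505 RPM in WT (log2 fold change -0.41, SE 0.073, edgeR adjusted p = 0.00737). The groups did not overlap, but per covered length the region no longer passed (log2 fold change -0.23, edgeR adjusted p = 0.261). In WT replicate 2 this was again 1 unbroken island, which cannot place the difference within the region, and the other 3 libraries divided it. Without that library, the part from -4.8 to +16.0 kb, with all of Lyl1, held 288 and 307 RPM in KO, against 276 RPM in WT replicate 1 (log2 fold change 0.04, edgeR adjusted p = 0.729). The part from +17.4 to +39.8 kb, inside Nfix, held 101 and 109 RPM in KO, against 206 RPM in WT replicate 1 (log2 fold change -1.04, edgeR adjusted p = 0.0098). In that fit, with 1 WT library, the lower H3K27ac lay in the Nfix interval and not over Lyl1.

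**Figure D3:**
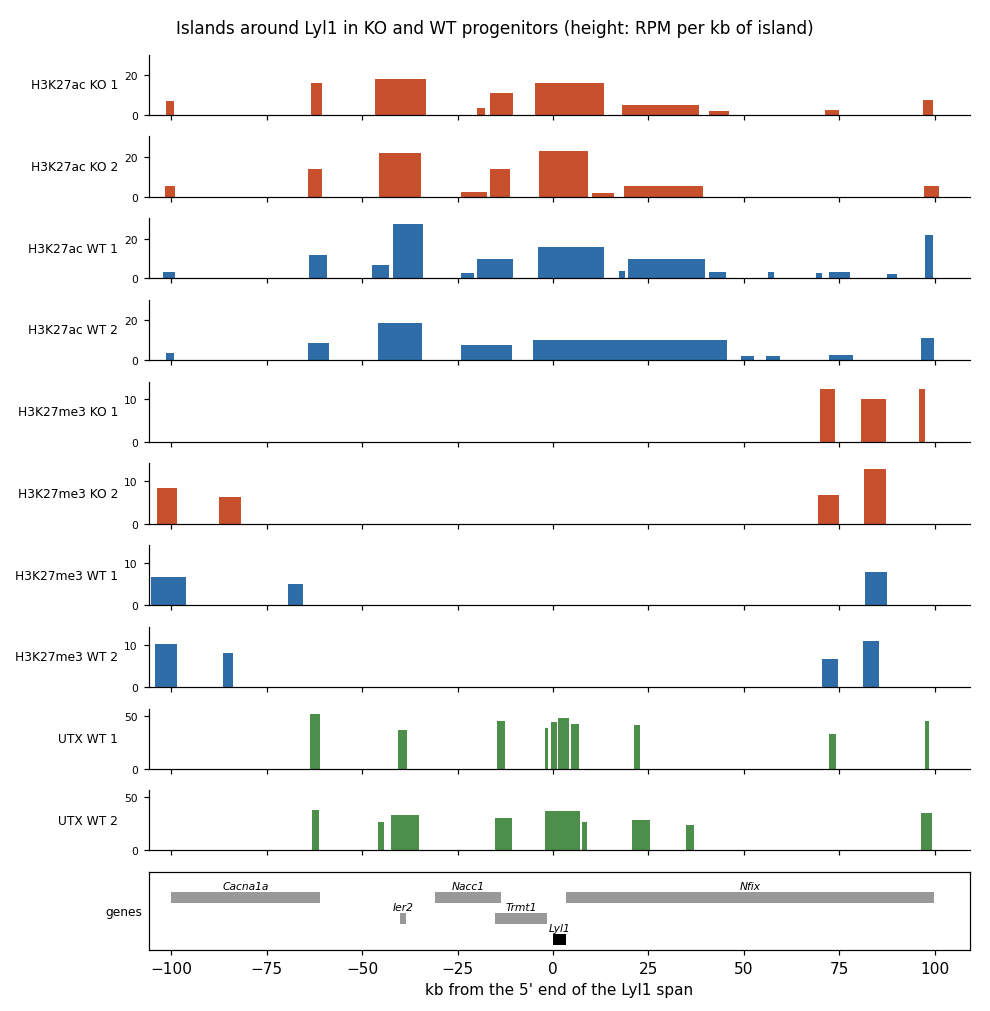
Islands around Lyl1, drawn as for Tal1. In the 3 libraries that divide the stretch, the bar over Lyl1 is 15.8 (replicate 1) and 23.1 (replicate 2) RPM per kb in KO, against 15.8 in WT replicate 1, and the bars at about +20 to +40 kb, inside Nfix, are lower in KO.

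The far end of Nfix, at +96.4 to +101.0 kb, also fell. It held 19.0 and 21.0 RPM in KO, against 43.5 and 37.2 RPM in WT (log2 fold change -1.12, SE 0.160, edgeR adjusted p = 0.00318). Another region, over the ends of Nacc1 and Trmt1 at -24.0 to -10.4 kb, passed the main test (75.8 and 88.4 RPM in KO, 99.99 and 101 RPM in WT, log2 fold change -0.41, edgeR adjusted p = 0.0281) but lost the call in 6 of 11 alternatives, among them leaving out KO replicate 1, WT replicate 1 or WT replicate 2. Ier2, an immediate early gene at -47.4 to -33.4 kb, held 241 and 239 RPM in KO, against 248 and 212 RPM in WT, with overlapping groups (edgeR adjusted p = 0.695). Summed over the Lyl1 window, H3K27ac was 806 and 832 RPM in KO, against 987 and 942 RPM in WT (log2 fold change -0.25, edgeR adjusted p = 0.0123). That sum did not hold without WT replicate 1 (edgeR adjusted p = 0.0624) or WT replicate 2 (0.0582), and per covered length it was 0.09 (edgeR adjusted p = 0.918).

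UTX was dense at Lyl1. Replicate 2 had a single island from -2.2 to +7.2 kb with 353 RPM, the strongest of the 4 windows, and replicate 1 had 4 islands in the same interval, the highest with 135 RPM at +1.4 to +4.2 kb. Inside Nfix, UTX islands stood at +21.2 to +22.8 kb in replicate 1 (66.1 RPM) and at +20.8 to +25.4 kb in replicate 2 (134 RPM). No H3K27me3 island lay over Lyl1 in any library. The nearest H3K27me3 region with islands in every library, at +80.6 to +87.6 kb inside Nfix, held 66.9 and 75.0 RPM in KO, against 45.6 and 45.6 RPM in WT (log2 fold change 0.52, edgeR adjusted p = 0.778).

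Lmo2, the bridging subunit, carried the longest H3K27ac region of the 4 windows, and all 3 of its tested regions were lower in KO. The region over the gene, from -36.5 to +26.3 kb, held 411 and 387 RPM in KO, against 607 and 637 RPM in WT. KO libraries lay clearly below WT libraries (399 ± 16.9 in KO and 622 ± 21.3 in WT, mean ± SD, n = 2 each). KO over WT came to -0.76 on the log2 scale (SE 0.083, edgeR adjusted p = 0.0012). Of all gene ends, 6.98% had a lower value. Covered lengths overlapped between the groups (61.2 and 50.0 kb in KO, 53.6 and 60.4 kb in WT), and per kb of island the region held 6.71 and 7.73 RPM in KO, against 11.3 and 10.5 RPM in WT (log2 fold change -0.71, edgeR adjusted p = 0.0113).

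The lower-coordinate part of the Lmo2 body was where island structure differed. In KO the stretch was broken at about +6 kb: replicate 1 had islands at -3.3 to +5.9 kb (40.7 RPM) and +6.7 to +26.3 kb (212 RPM), and replicate 2 at -5.5 to +5.5 kb (53.5 RPM) and +6.5 to +25.3 kb (206 RPM). In WT a single island crossed it, from -4.3 to +25.1 kb in replicate 1 (448 RPM) and from -14.9 to +25.3 kb in replicate 2 (518 RPM). Per kb, the KO islands below +6 kb held 4.43 and 4.86 RPM and those above it 10.8 and 10.9 RPM, while the WT islands over both held 15.2 and 12.9 RPM.

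A second long region, from -87.5 to -37.1 kb, with no protein-coding gene end, held 129 and 126 RPM in KO, against 268 and 278 RPM in WT (log2 fold change -1.21, SE 0.082, edgeR adjusted p = 0.00032). KO islands there covered less, 27.2 and 24.2 kb in KO, against 47.4 and 48.8 kb in WT. The outermost KO islands began at -66.1 and -64.9 kb, whereas WT islands reached -87.5 and -86.9 kb. Per covered length the difference was smaller and did not pass (log2 fold change -0.30, edgeR adjusted p = 0.263). Without WT replicate 2, the part from -71.3 to -46.7 kb held 112 and 107 RPM in KO, against 206 RPM in WT replicate 1 (log2 fold change -0.98, edgeR adjusted p = 0.0111). The part from -46.1 to -37.1 kb held 17.5 and 19.5 RPM in KO, against 26.4 RPM in WT replicate 1, and did not pass (log2 fold change -0.58, edgeR adjusted p = 0.142).

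**Figure D4:**
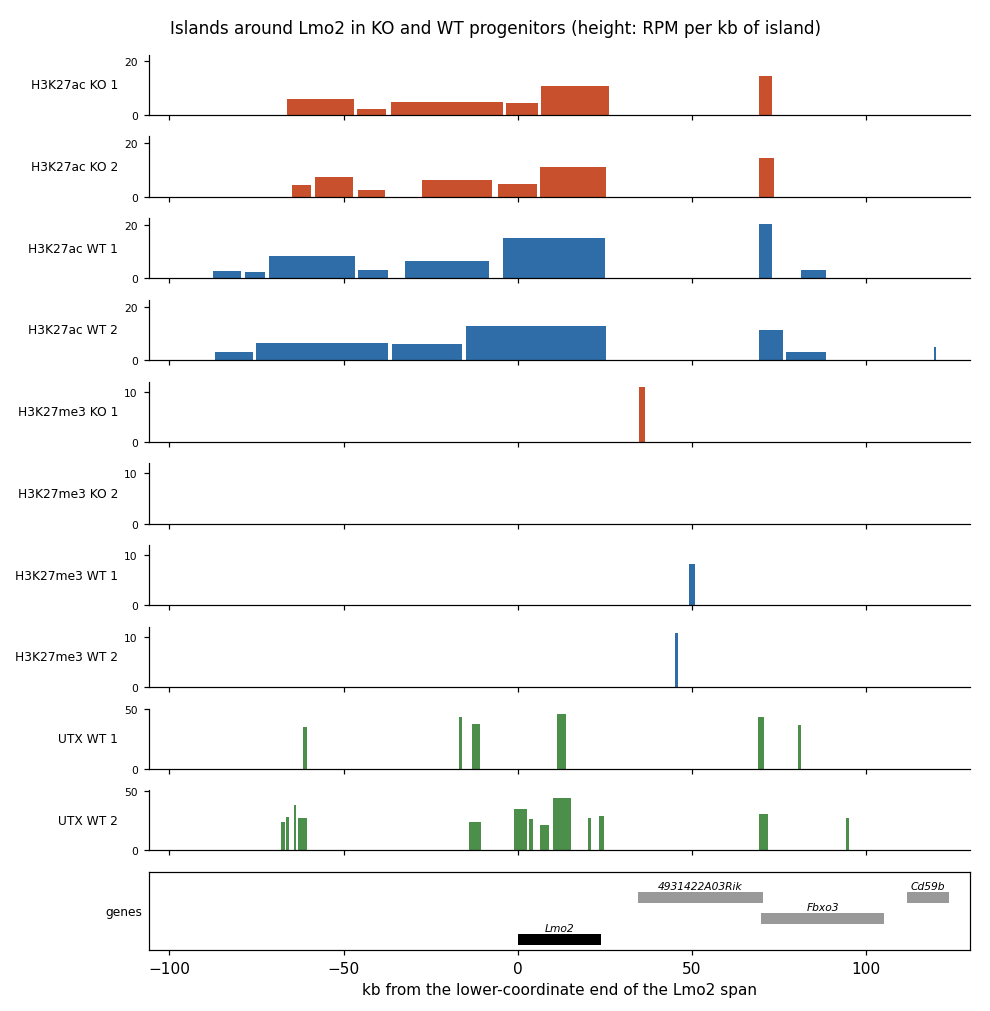
Islands around Lmo2, drawn as for Tal1 with distance counted from the lower-coordinate end of the span. KO islands stop near -66 kb where WT islands go on to about -87 kb, the KO bars over the gene are lower, and WT libraries alone have islands between +77 and +89 kb.

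On the higher-coordinate side, the region over the ends of Fbxo3, an F-box gene, and 4931422A03Rik, at +69.3 to +76.1 kb, held 55.6 and 60.1 RPM in KO, against 77.8 and 77.5 RPM in WT (log2 fold change -0.54, edgeR adjusted p = 0.00907). It did not pass without KO replicate 1 (edgeR adjusted p = 0.0509) or per covered length (0.708). Next to it, at +77.1 to +88.5 kb, both WT libraries had an island (22.4 and 33.9 RPM) and neither KO library did. Summed over the window, H3K27ac was 595 and 573 RPM in KO, against 975 and 1029 RPM in WT (log2 fold change -0.79, edgeR adjusted p = 0.00213; per covered length -0.30, 0.472).

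UTX met Lmo2 in its body and outside it. Replicate 1 had its strongest island at +11.3 to +13.9 kb (119 RPM) and replicate 2 at +10.3 to +15.3 kb (221 RPM), both within the part of the body that held the higher KO islands. At the lower-coordinate end replicate 2 alone had an island (-1.1 to +2.7 kb, 132 RPM). Both libraries had islands at -13.1 to -10.7 kb (90.6 RPM in replicate 1) and -14.1 to -10.5 kb (86.1 RPM in replicate 2), and again near -61 kb (41.6 RPM and 70.3 RPM). H3K27me3 was near absent: 1 small island of 19.6 RPM in KO replicate 1 and none in KO replicate 2, against 1 of 14.9 RPM and 1 of 8.55 RPM in the WT libraries, none over the gene.

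Ldb1, the dimerising subunit, had a compact region of its own, from -0.5 to +14.3 kb, shared with no other protein-coding gene end. It held 123 and 127 RPM in KO, against 184 and 187 RPM in WT (125 ± 3.16 in KO and 185 ± 2.31 in WT, mean ± SD, n = 2 each). The groups were far apart for their spread (log2 fold change -0.68, SE 0.080, edgeR adjusted p = 0.00149). A lower value was found at 8.34% of gene ends. Islands covered similar lengths (13.4 and 12.8 kb in KO, 12.2 and 12.8 kb in WT). Per kb of island the region held 9.15 and 9.93 RPM in KO, against 15.0 and 14.6 RPM in WT (log2 fold change -0.75, edgeR adjusted p = 0.0314).

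The neighbours of Ldb1 moved both ways. The region over the ends of Pprc1, a coactivator of mitochondrial genes, and Nolc1, a nucleolar protein gene, at -33.7 to -7.3 kb, held 84.1 and 94.1 RPM in KO, against 145 and 142 RPM in WT (log2 fold change -0.81, edgeR adjusted p = 0.00122). Its islands covered 10.4 and 17.2 kb in KO, against 19.4 and 25.2 kb in WT, and per covered length the difference was -0.06 (edgeR adjusted p = 0.925). The region over Hps6, a gene of lysosome-related organelles, at +41.1 to +46.3 kb, was the 1 region of the 4 windows called higher, with 35.9 and 36.0 RPM in KO, against 21.2 and 19.8 RPM in WT (log2 fold change 0.70, edgeR adjusted p = 0.0184). Its call was lost on leaving out any 1 of the 4 libraries (edgeR adjusted p = 0.0613 to 0.0835), and per covered length the sign turned (-0.13). The region over the near end of Armh3, at +48.1 to +52.7 kb, held 50.7 and 56.4 RPM in KO, against 42.2 and 36.1 RPM in WT (log2 fold change 0.34, edgeR adjusted p = 0.0921), and passed only when scaled by total island reads (0.46, edgeR adjusted p = 0.0475). Summed over the window, H3K27ac was 301 and 322 RPM in KO, against 399 and 393 RPM in WT (log2 fold change -0.36, edgeR adjusted p = 0.0102). That sum did not pass without WT replicate 2 (0.0518) or per covered length (-0.18, edgeR adjusted p = 0.811).

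**Figure D5:**
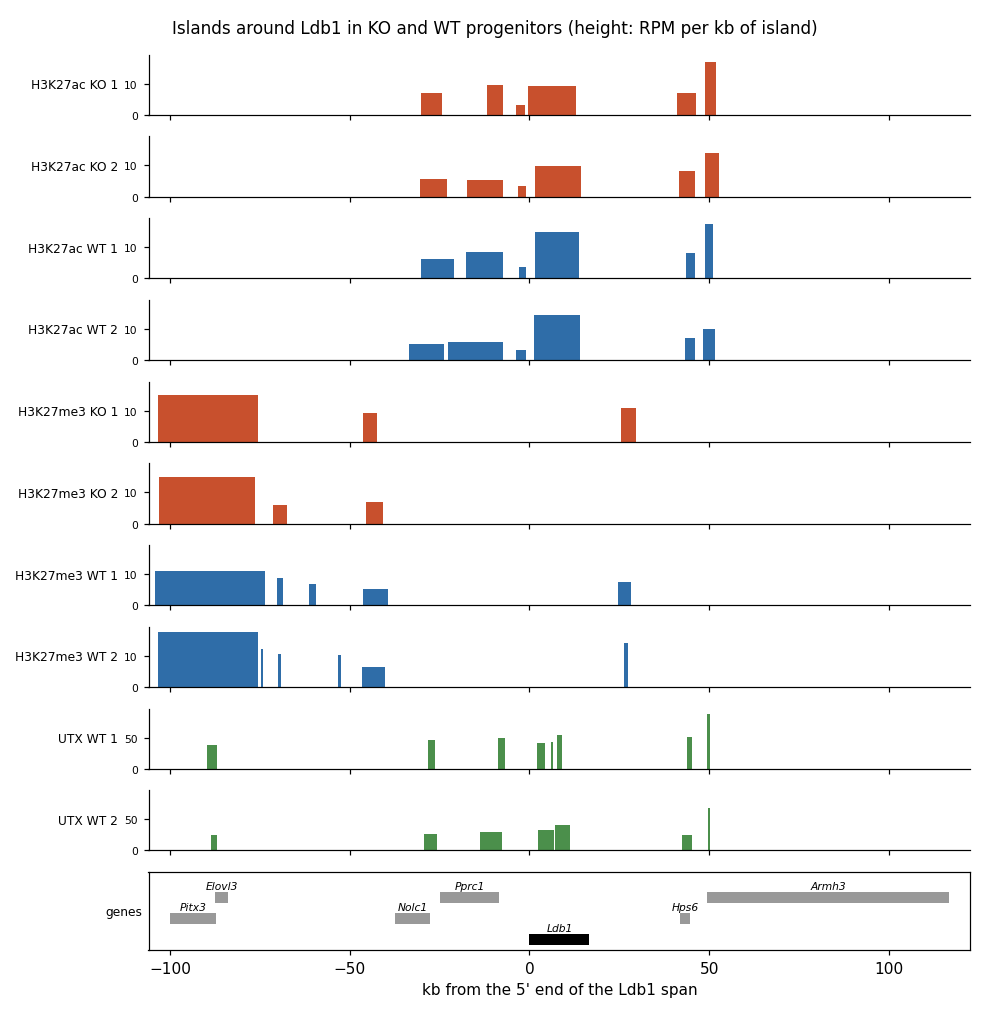
Islands around Ldb1, drawn as for Tal1. The H3K27ac bar over Ldb1 is as long in KO as in WT and lower, and the broad H3K27me3 bars lie at about -104 to -73 kb, over Pitx3 and Elovl3, in all 4 libraries.

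UTX islands in the Ldb1 window were the most repeatable of the 4, with 8 of 8 in replicate 1 and 7 of 7 in replicate 2 met by the other library. Inside the gene they stood at +2.1 to +4.3 kb (93.1 RPM) and +7.5 to +9.1 kb (86.9 RPM) in replicate 1, and at +2.3 to +6.7 kb (149 RPM) and +7.1 to +11.3 kb (172 RPM) in replicate 2. No H3K27me3 island lay over Ldb1. The broadest H3K27me3 region of the window, over Pitx3, a homeobox gene, and Elovl3, a fatty acid elongase gene, held 417 and 404 RPM in KO, against 333 and 491 RPM in WT, with overlapping groups (log2 fold change -0.12, edgeR adjusted p = 0.903).

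Over the 4 windows together, H3K27me3 islands joined into 17 regions, of which 4 were tested. None was called by edgeR, with 0 at an unadjusted p under 0.05 and 0 by DESeq2. Genome-wide, edgeR called 0.0148% of 6771 H3K27me3 regions lower and 0.0% higher, and DESeq2 0.251% and 0.236%. H3K27ac regions with an island in both WT and neither KO library numbered 3 of 30 (10%), 1 each at Tal1, Lyl1 and Lmo2, against 9.28% of all regions. The reverse pattern had 0 members in the windows and 5.18% of all regions.

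The called H3K27ac regions of the windows all met UTX islands. Of the tested regions, 15 of 20 (75.0%) met islands of both UTX libraries, against 38.4% of all regions tested. The 10 lower regions and the 1 higher region were within these 15 and none within the other 5. Of all regions that met both UTX libraries 19.1% were lower and 9.46% higher, and of those that did not 10.8% were lower and 13.6% higher. Median region width was 7.2 kb in the windows and 7.0 kb over all tested regions. Within the windows, the 5 regions that did not meet both UTX libraries were 3.0 to 7.0 kb wide. The called regions were 4.6 to 62.8 kb wide. What part width or read number had in meeting UTX or in being called was not tested. In all, replicate 1 had 30 UTX islands in the windows and replicate 2 had 36, of which 24 and 20 met an island of the other library, against 56.95% and 44.09% of islands over the genome. None met an IgG island, of which the windows held 0. The IgG list held 3133 islands over 4.05 Mb of the whole genome, so their absence here says little about background.

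The known partners of the complex were counted at their own ends. Their list was drawn up with earlier results of these data known, so the counts describe the list and test no excess. Of 26 partner genes 24 had a tested H3K27ac region, 8 (33.3%) of them lower and 2 (8.33%) higher, against 16.9% and 10.8% of all gene ends, with a median log2 fold change of -0.14, against -0.05 over all gene ends. Gata1, the erythroid GATA factor, held 40.6 and 41.5 RPM in KO, against 80.3 and 82.4 RPM in WT (log2 fold change -1.10, edgeR adjusted p = 0.00078). Gata2, the GATA factor of stem cells, held 160 and 110 RPM in KO, against 218 and 184 RPM in WT (log2 fold change -0.68, edgeR adjusted p = 0.0287). Zfpm1, which encodes the GATA1 cofactor FOG1, held 255 and 333 RPM in KO, against 597 and 693 RPM in WT (log2 fold change -1.25, edgeR adjusted p = 0.00136). Both GATA genes and their cofactor thus had KO libraries below WT libraries. Gfi1b, a repressor of erythroid and platelet precursors, fell by 1.73 on the log2 scale (80.7 and 111 RPM in KO, 291 and 293 RPM in WT). Tcf3, which encodes an E protein partner of TAL1 and LYL1, held 204 and 216 RPM in KO, against 217 and 217 RPM in WT, and did not pass (log2 fold change -0.16, edgeR adjusted p = 0.165). Lmo4, a LIM-only relative of Lmo2, was higher, with 262 and 281 RPM in KO, against 156 and 135 RPM in WT (log2 fold change 0.79, edgeR adjusted p = 0.00103). The other lower partners were Klf1, Ssbp2, Ssbp3 and Rcor1, and the other higher one was Fli1.

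Of 17 target genes of the complex, 9 had a tested region, 6 (66.7%) of them lower and 0 higher, against 16.9% and 10.8% of all gene ends, with a median log2 fold change of -0.51, against -0.05 over all gene ends. The target list was also drawn up with earlier results of these data known, and its counts test no excess. Epor, the erythropoietin receptor gene, held 9.01 and 11.6 RPM in KO, against 58.5 and 58.3 RPM in WT (log2 fold change -2.63, edgeR adjusted p = 0.00029). Its log2 fold change was farther from 0 than any of the 20 regions around the members. Hbb-bt, a beta globin gene whose near-identical copy Hbb-bs can take its reads, had a log2 fold change of -1.78, and Itga2b, the platelet integrin gene, one of -0.64 (edgeR adjusted p = 0.00094 and 0.0127). Kit, the stem cell factor receptor gene, held 139 and 136 RPM in KO, against 176 and 186 RPM in WT (log2 fold change -0.51, edgeR adjusted p = 0.00587), and Nfe2, a globin regulator gene, had a log2 fold change of -0.47 (0.00693). The 3 tested targets that were not called were Myb and Cdkn1a, with log2 fold changes above 0, and Gp1ba, with one below 0. 8 target genes lacked a tested region: 7 of them had an island in both WT libraries and none in KO replicate 1, and Tal2 had none in any library. Of those 7, Epb42, Slc4a1 and Alas2 had an island in KO replicate 2, and the rest had none there. Counted by region and not by gene, 9.28% of all H3K27ac regions had an island in both WT libraries and neither KO library. 5 of the targets and the partner Klf1 are also among the 7 erythroid markers, of which 3 in KO replicate 1 and 5 in KO replicate 2 met an H3K27ac island, against 7 in each WT library. How far the make-up of the cells moved these values was not tested.

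The genes whose end regions had the most similar H3K27ac profile over the 4 libraries were found by the Euclidean distance between log2 CPM values, each gene centred on its own mean, among genes of like level. For Tal1 they were Ak1, Acsl5 and Mbd2 (distances 0.278, 0.282 and 0.321 among 2722 genes), for Lyl1 Zbtb1, Ap4b1 and C2cd2l (0.0389, 0.0547 and 0.0563 among 594), for Lmo2 Ugcg, Ift57 and Kcnn4 (0.0480, 0.0885 and 0.103 among 464) and for Ldb1 Vps13d, Primpol and Med7 (0.0336, 0.0376 and 0.0465 among 3778). Ak1, an adenylate kinase gene, held 76.1 and 80.6 RPM in KO, against 204 and 215 RPM in WT, and Ugcg, a glucosylceramide synthase gene, 422 and 399 RPM in KO, against 647 and 652 RPM in WT. The 4 libraries behind each profile are the same for every gene. By the log2 fold change at their ends the members ranked Tal1 (-1.67), Lmo2 (-0.76), Ldb1 (-0.68) and Lyl1 (-0.41), and Lmo2 and Ldb1 differed by less than the SE of either.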

How the data were processed

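ChIP-seq of H3K27ac, H3K27me3, UTX and IgG was analysed from 11 deposited island lists of 14 samples. Per the submitters' processing notes, islands were called with SICER on mm10; its version, settings and control, and the aligner, are not given in the sources used here. The deposited values are read counts of islands, whole and not normalized, with 1 list from the authors for each library. Reads outside islands were not used, so a region without an island has no count and depth means reads in islands.

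Gene spans came from a RefSeq table of GRCm38. For each mark, islands that overlapped by 1 bp in any of its 4 libraries formed 1 region. The test, on regions with an island in every library, was edgeR 4.0.16 (R 4.3.3, quasi-likelihood, TMM, two-sided, Benjamini-Hochberg over all regions, threshold 0.05). A gene-end region is the tested region with most reads within 2 kb of an annotated end. Window sums add whole islands within 100 kb of a span. SE is the log2 fold change divided by the square root of F. With 2 libraries a group, an exact permutation test of 1 value cannot go below 0.333. The fit was also run on simulated counts with 200 changed regions or windows and the same dispersion for all. That run checked the code and not the size of difference that can be found in these data.

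Members and lists were chosen with earlier results of these data known. Named are the members, neighbours that share a region with them or meet the highest or lowest region of a window, 26 partners, 17 targets (up to 6 of each with values) and 3 most similar genes per member; other neighbours were named after their values were seen, and 1 target gene is not reported here. Alternatives covered total-read scaling, DESeq2 1.42.0, islands in at least 2 libraries, a mean of 50 reads, reads per covered length, the islands below the 0.25 quantile of reads left out, windows of 50 and 200 kb, the replicate number as a block and leaving out each library.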

Additional observations from a re-analysis of the deposited data

How the results depend on the processing

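Counted per covered length of island, called H3K27ac regions numbered 4, against 11 by total reads, the median of all regions lay at -0.07, and the window sums gave -0.52 (Tal1, edgeR adjusted p = 0.111), 0.09 (Lyl1, reversed), -0.30 (Lmo2) and -0.18 (Ldb1), with -0.23 at the Lyl1 gene end; by construction it takes out differences in island length. Leaving out 1 library in turn gave 8 to 10 called H3K27ac regions and 0 called H3K27me3 regions. It gave -1.81 to -1.53 (gene end) and -1.03 to -0.93 (window) at Tal1, -0.47 to 0.04 and -0.27 to -0.24 at Lyl1, -0.84 to -0.67 and -0.85 to -0.74 at Lmo2, and -0.74 to -0.62 and -0.40 to -0.33 at Ldb1. Leaving out WT replicate 2 also shortened the region at the Lyl1 end, so its change of sign is not for the same stretch. That change and the losses at the Lyl1 and Ldb1 window sums are given with those genes. Islands in only 1 genotype numbered 1 within 50 kb and 10 within 200 kb, against 3 within 100 kb. The other alternatives kept the direction and the side of the threshold of the 4 gene ends and 4 window sums. Single regions that changed sign were each uncalled in the main fit except Hps6. Hps6 gave -0.13 per covered length, and the region before Ldb1 0.03 by total reads and 0.08 without WT replicate 2. Cmpk1 gave 0.10 by total reads and -0.07 to 0.04 without 1 library. The region at -63.0 kb from Tal1 gave -0.64 to 0.06 without 1 library. The far end of Stil gave 0.11 by total reads, 0.0 by DESeq2 and 0.28 per covered length. It gave 0.01 without the weakest islands and -0.03 to 0.05 without 1 library. Cacna1a gave 0.45 per covered length, and Ier2 0.06 by total reads and -0.12 to 0.02 without 1 library. In H3K27me3 they were at -46.7 kb from Ldb1 (0.32 per covered length), over Pitx3 (-0.34 to 0.14 without 1 library) and over Cyp4x1 (-0.27 per covered length). The cause was not tested.

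Deviations of replicates with the same number were hardly correlated (0.0462 in H3K27ac, -0.0516 in H3K27me3). With 2 libraries a genotype this cannot show whether same-numbered libraries were prepared together, and the main test did not pair them. With the replicate block, 11 H3K27ac and 0 H3K27me3 regions were called, the gene ends gave -1.68 (Tal1), -0.41 (Lyl1), -0.76 (Lmo2) and -0.68 (Ldb1), and no call on a gene end or window sum changed. The H3K27me3 lists held fewer reads than the H3K27ac lists, which limits what a test there can detect. Intervals and values cover what was called as an island only.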

Other observations

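At the partners' ends, H3K27me3 could be tested at 3 of 26 genes and none was called by edgeR. Gata2 held 378 and 381 RPM in KO, against 172 and 255 RPM in WT, with both KO libraries above both WT libraries (log2 fold change 0.72, edgeR adjusted p = 0.384). Gata3, the GATA factor of T cells, had no H3K27ac island at its ends in any of the 4 libraries and held 618 and 565 RPM of H3K27me3 in KO, against 390 and 532 RPM in WT (log2 fold change 0.24, edgeR adjusted p = 0.766). Lmo1, a LIM-only relative known as an oncogene of T cell leukaemia, held 142 and 154 RPM of H3K27me3 in KO, against 181 and 133 RPM in WT, with overlapping groups (edgeR adjusted p = 0.86).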
